A study of Mus musculus with 7 samples.

Results

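The Dlk1-Dio3 imprinted locus was followed in RNA sequencing of mouse lung as 6 of the 22447 genes measured. Its members were taken by gene symbol and are Dlk1, Rtl1 and Dio3, which encode proteins, and Meg3, Rian and Mirg, which are long noncoding RNAs. They were chosen because their levels in tumors were already known from these libraries, so their values are a description. They are counted once among the calls of a fit over all genes, beside the share of all genes called, and that count is no evidence about them. All 6 were present in every file. Levels are FPKM (fragments per kilobase of gene, scaled to the mapped fragments of the library), which divides by gene length and so allows genes to be compared.

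The samples were 3 lung tumors with EZH2 overexpression (OE tumors), 2 libraries labelled as normal lung with the same genotype (OE normal lung) and 2 libraries of wild-type lung (WT lung). The EZH2 protein is the methyltransferase subunit of Polycomb repressive complex PRC2, which silences genes through histone H3 methylation. The strain, the age, the promoter behind the EZH2 transgene and whether replicates were separate animals are not stated in the labels. The source was labelled lung tissue, while the growth protocol has tumor nodules minced and put in culture, so tissue and culture cannot be told apart for the tumors.

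Imprinted genes are read mainly from the chromosome copy of one parent. On mouse chromosome 12, Dlk1, Rtl1 and Dio3 are expressed from the paternal copy, while Meg3, Rian, Mirg and a large group of microRNAs and small nucleolar RNAs are expressed from the maternal copy. An intergenic control region between Dlk1 and Meg3, methylated on the paternal copy, sets this pattern, and the locus is active in fetal tissues and the placenta and is mostly low in adult lung. Reads were not assigned to a parental copy in these files, so expression from the 2 copies cannot be told apart here.

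The start regions of Meg3, Dlk1 and Dio3 are shown because these genes are, in order, the highest noncoding member, the highest coding member and the member with the smallest tumor difference. Each runs 5′ to 3′ from 250 bases before to 50 bases after the annotated start, from RefSeq on GRCm38.p6, plus strand. Capitals mark matches to TATAAA, TGACGTCA (the cyclic AMP response element) or TGCCGC (a core motif of ZFP57, the imprint-protecting zinc finger protein) on either strand.
Meg3, chr12:109540746-109541045: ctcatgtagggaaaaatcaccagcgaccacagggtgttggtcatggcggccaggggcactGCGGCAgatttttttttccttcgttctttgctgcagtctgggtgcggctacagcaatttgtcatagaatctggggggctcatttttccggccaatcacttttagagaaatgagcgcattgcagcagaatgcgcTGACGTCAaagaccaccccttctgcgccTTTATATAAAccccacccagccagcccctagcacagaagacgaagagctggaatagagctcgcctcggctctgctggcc
Dlk1, chr12:109452573-109452872: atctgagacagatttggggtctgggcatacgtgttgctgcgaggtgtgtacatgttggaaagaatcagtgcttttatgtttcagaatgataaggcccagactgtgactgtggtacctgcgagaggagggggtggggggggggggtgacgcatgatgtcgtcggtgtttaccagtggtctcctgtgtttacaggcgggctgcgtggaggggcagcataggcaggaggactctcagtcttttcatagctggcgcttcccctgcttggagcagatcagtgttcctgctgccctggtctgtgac
Dio3, chr12:110278980-110279279: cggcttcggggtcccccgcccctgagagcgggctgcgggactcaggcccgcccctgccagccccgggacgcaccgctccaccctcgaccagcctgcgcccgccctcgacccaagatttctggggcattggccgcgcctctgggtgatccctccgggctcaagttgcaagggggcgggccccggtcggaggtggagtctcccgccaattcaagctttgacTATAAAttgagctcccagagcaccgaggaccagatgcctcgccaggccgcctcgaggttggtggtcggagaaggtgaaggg

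The Meg3 window shown, at the first of 2 starts in the table, held 1 TGACGTCA beginning 57 bases before the start and 1 TGCCGC, read on the other strand, beginning 190 bases before it. It also held 2 overlapping TATAAA matches, 1 on each strand, beginning 29 and 25 bases before the start. The Dio3 window held 1 TATAAA, beginning 31 bases before the start, and none of these motifs was found in the Dlk1 window or in the window of the second Meg3 start (chr12:109545148-109545447), which held 1 CG pair. Among 32851 RefSeq start windows of the same length, 13.6% held TATAAA, 1.79% held TGACGTCA and 11.6% held TGCCGC on either strand. The number of CG pairs was 13 for the Meg3 window shown, 9 for Dlk1 and 25 for Dio3, against a median of 7 over all windows (quartiles 3 and 20). A match describes these letters and was not tested as a binding site. Of the 6 members, 5 had a start window in the RefSeq table used.

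The libraries differed in ways that touch these genes. Judged by the spacing of low values, tumor 1 was the shallowest library and the other 6 were 1.199 to 1.867 times as deep. Absolute read totals are unknown. Sex-linked genes showed the male pattern in tumor 1, OE normal lung 1 and both WT lungs (Eif2s3y 27.4 to 30.7 FPKM) and the female pattern in tumors 2 and 3 and OE normal lung 2 (Xist 60.6 to 74.2 FPKM). Ezh2 measured 8.48, 23.5 and 22.6 FPKM in tumors 1, 2 and 3, against 10.2 and 11.5 FPKM in OE normal lung, with 3.72 and 2.58 FPKM in WT lung. Tumor 1 therefore stood apart in sex and in Ezh2 level. Without tumor 1 the log2 differences of Dlk1, Meg3, Rian and Mirg from OE normal lung were 7.98, 6.96, 6.91 and 5.78.

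Meg3, the noncoding RNA that marks the maternal copy, had 334.1, 1601.3 and 1554.4 FPKM in tumors 1, 2 and 3. It had 25.01 and 5.14 FPKM in OE normal lungs 1 and 2, and 6.58 and 8.93 FPKM in WT lungs 1 and 2. The tumors did not overlap either normal group, and the lowest tumor was 13.4 times the highest normal lung. The tumor mean of 1163 ± 718 FPKM (SD, n = 3) compared with 15.1 ± 14.1 FPKM in OE normal lung (SD, n = 2) and 7.76 ± 1.66 FPKM in WT lung (SD, n = 2), folds of 77.1 and 150.0. On the log2(FPKM + 1) scale, which understates changes of low genes, the difference was 6.22 from OE normal lung (SE 0.87) and 6.76 from WT lung (SE 0.87). Ordered by FPKM among the 19404 genes above 0 in some library, Meg3 was number 20 in tumor 2, 22 in tumor 3 and 171 in tumor 1, against 2806 in OE normal lung 1 and 6919 to 9704 in the other 3 normal lungs.

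Rian, which hosts C/D box small nucleolar RNAs in its introns, had 155.1, 725.9 and 714.1 FPKM in tumors 1, 2 and 3, against 10.3 and 2.17 FPKM in OE normal lungs 1 and 2 and 2.60 and 3.48 FPKM in WT lungs 1 and 2. It was thus high in every tumor, lowest among them in tumor 1, and the tumor mean was 85.5 times that of OE normal lung and 175.1 times that of WT lung. The log2 differences were 6.18 and 6.75 (SE 0.82 each).

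Mirg, the host transcript of the distal microRNA cluster, was the lowest of the noncoding members. It had 14.6, 79.4 and 92.3 FPKM in tumors 1, 2 and 3, against 1.13 and 0.157 FPKM in OE normal lungs 1 and 2 and 0.310 and 0.660 FPKM in WT lungs 1 and 2. The groups did not overlap, with the lowest tumor at 12.9 times the highest normal lung. The log2 difference was 4.96 from OE normal lung and 5.05 from WT lung (SE 0.79 each).

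Among the paternally expressed genes, Dlk1 was the highest. It encodes a transmembrane protein with EGF-like repeats, related to Notch ligands, that holds back fat cell differentiation and marks immature cells of several fetal tissues. Dlk1 had 199.6, 922.0 and 977.8 FPKM in tumors 1, 2 and 3. In OE normal lung it had 9.94 FPKM in library 1 and 0.293 FPKM in library 2, and in WT lung it had 0.328 and 0.745 FPKM. Every tumor lay above every normal lung, and OE normal lung 1 lay far above the other 3 normal lungs, which were all under 1 FPKM. The tumor mean of 699.8 ± 434.1 FPKM (SD, n = 3) was 136.8 times the OE normal mean of 5.11 ± 6.82 FPKM (SD, n = 2) and 1305 times the WT mean of 0.536 ± 0.295 FPKM (SD, n = 2). The log2 difference was 7.23 from OE normal lung and 8.54 from WT lung (SE 1.06 each).

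Rtl1, a gene derived from a retrotransposon that is needed in fetal capillaries of the placenta, stayed below 1 FPKM in all 7 libraries. Its levels were 0.346, 0.794 and 0.905 FPKM in tumors 1, 2 and 3, against 0.0244 and 0.00314 FPKM in OE normal lungs 1 and 2 and 0.0120 and 0.00430 FPKM in WT lungs 1 and 2. Values below 50 steps were whole multiples, within 0.03, of 1 smallest step per library. If a step is 1 fragment, the levels stand for about 59, 233 and 196 fragments in tumors 1, 2 and 3, where the step count is above that limit and was rounded, against 5 and 1 in OE normal lung and 3 and 1 in WT lung. The exact Poisson 95% interval was 0.263 to 0.446 FPKM in tumor 1 and 0.00793 to 0.0570 FPKM in OE normal lung 1, and it covers counting error only. The groups did not overlap, and the tumor mean was 49.4 times that of OE normal lung and 83.5 times that of WT lung. Rtl1 has an antisense partner on the maternal copy that carries microRNAs. The row of an antisense transcript, 6430411K18Rik, was listed at 0 in every library, and the strand setting is unknown, so reads of the 2 strands cannot be told apart.

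Dio3, the type 3 deiodinase that inactivates thyroid hormone, showed the smallest difference of the locus. It had 0.423, 0.441 and 0.263 FPKM in tumors 1, 2 and 3, against 0.191 and 0.0660 FPKM in OE normal lungs 1 and 2 and 0.0723 and 0.0643 FPKM in WT lungs 1 and 2. In steps this was 24, 43 and 19 fragments in the tumors, against 13 and 7 in OE normal lung and 6 and 5 in WT lung. The tumors lay above all normal lungs. The Poisson intervals were 0.271 to 0.629, 0.319 to 0.593 and 0.158 to 0.411 FPKM in tumors 1, 2 and 3. Each overlapped that of OE normal lung 1 (0.102 to 0.327 FPKM), tumor 2 only slightly. Overlap of intervals is not a test, and no tumor was clear of OE normal lung 1 by this measure. The tumor mean was 2.92 times that of OE normal lung and 5.50 times that of WT lung. Unlike the other members, Dio3 was not lowest among tumors in tumor 1, and tumor 3 stood at 0.623 times tumor 1. This order rests on 24 fragments in tumor 1 against 19 in tumor 3, and their Poisson intervals overlapped.

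**Figure D1:**
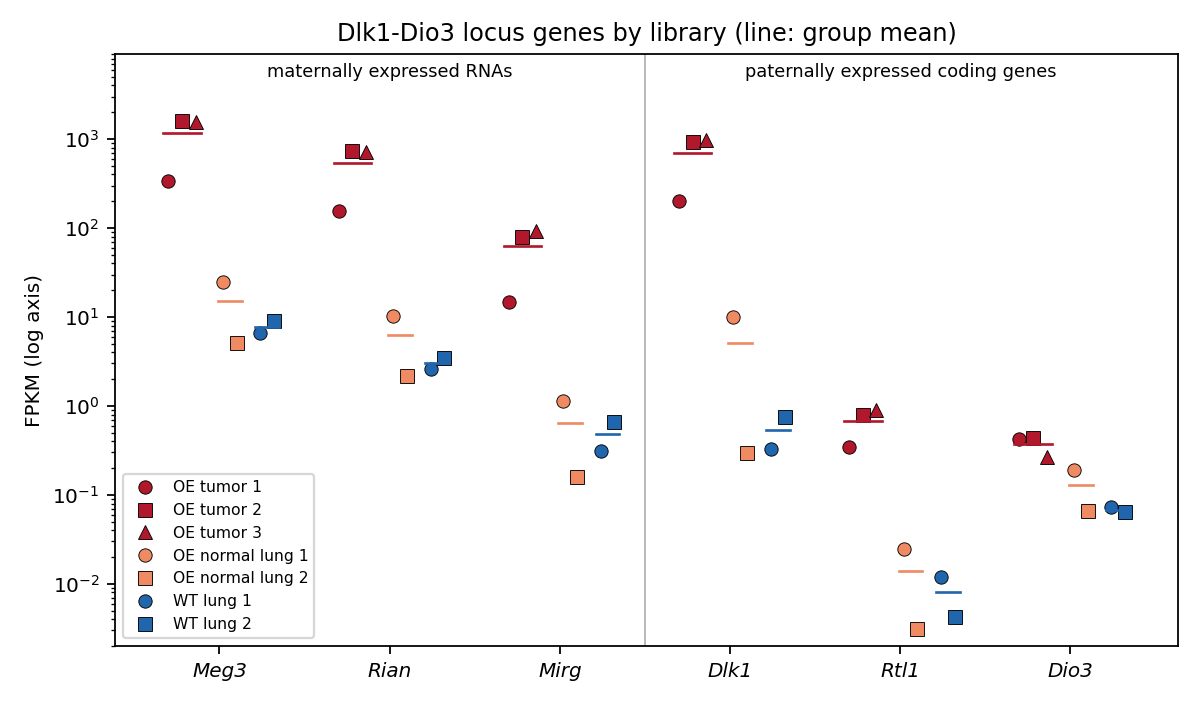
FPKM (log axis) of the 3 maternally expressed RNAs and the 3 paternally expressed coding genes in each library, with a line at each group mean. Tumor points lie above all normal lung points for every gene, and the first OE normal lung is the highest normal lung for every gene.

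All 6 members had every tumor above every normal lung, a pattern met by 17.5% of the 19404 genes above 0 in some library. Of the 6, 4 reached 1 FPKM in at least 2 libraries and entered the limma fit, namely Dlk1, Meg3, Rian and Mirg. All 4 were called higher at an adjusted p under 0.05 in OE tumors against OE normal lung, where 38.1% of the 14057 genes were called (13.1% higher, 24.9% lower), and in OE tumors against WT lung, where 38.2% were called (15% higher, 23.2% lower). Both comparisons share the tumors, and the members were chosen from this readout, so nothing is read from these calls. Rtl1 and Dio3 fell below the minimum. Without that minimum their log2 differences from OE normal lung were 0.71 (SE 0.15) and 0.29 (SE 0.07). Between OE normal lung and WT lung none of the 4 was called, and 0% of the 14057 genes were called by limma, with 1208 at an unadjusted p under 0.05. The total of 5350 calls against OE normal lung rose to 9620 without tumor 1 and dropped to 3155 and 2996 without OE normal lung 1 and 2. The total of 5371 against WT lung rose to 9438 without tumor 1 and dropped to 2734 and 2445 without WT lung 1 and 2. The share of calls that were higher against OE normal lung was 34.5% in unscaled FPKM, 44.6% after median-of-ratios scaling, 18.2% in TPM and 53.7% after quantile normalization. The median of all genes was -0.11, 0.05, -0.33 and 0.11 under these settings, and each difference is read against that shift.

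Within the tumors the members split into groups by how far tumor 1 lay below the others. Tumors 2 and 3 had 4.62 and 4.90 times the Dlk1 of tumor 1, 4.79 and 4.65 times its Meg3 and 4.68 and 4.60 times its Rian. Mirg was 5.42 and 6.31 times higher and Rtl1 2.29 and 2.61 times higher, while Dio3 was 1.04 and 0.623 times the level in tumor 1, on 19 to 43 fragments per tumor. Tumors 2 and 3 differed from each other by 0.971 to 1.16 fold for the first 5 of these genes. The sex of the libraries moved with this split, and its part was not tested.

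Set against Meg3 in the same library, Rian was nearly constant over a wide range of levels. Its ratio to Meg3 was 0.464, 0.453 and 0.459 in tumors 1, 2 and 3, against 0.410 and 0.422 in OE normal lung and 0.394 and 0.390 in WT lung. The highest ratio was 1.19 times the lowest, and the tumors lay just above the normal lungs. The Mirg ratio was 0.0438, 0.0496 and 0.0594 in the tumors, 0.0453 and 0.0305 in OE normal lung and 0.0470 and 0.0739 in WT lung, so the groups overlapped.

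Of the paternal genes, Dlk1 and Dio3 did not keep a constant ratio to Meg3. Dlk1 stood at 0.597, 0.576 and 0.629 times Meg3 in tumors 1, 2 and 3, against 0.397 in OE normal lung 1 and 0.0569 in OE normal lung 2 and 0.0498 and 0.0834 in WT lungs 1 and 2. The ratio was therefore close to equal in the 3 tumors, intermediate in OE normal lung 1 and lowest in the other 3 normal lungs. Dio3 went the other way, at 0.00127, 0.000275 and 0.000169 times Meg3 in the tumors, against 0.00764 and 0.0128 in OE normal lung and 0.0110 and 0.00721 in WT lung. The Rtl1 ratio overlapped between groups, from 0.000496 to 0.00104 in tumors, against 0.00061 to 0.000977 in OE normal lung and 0.000481 to 0.00183 in WT lung. In the normal lungs it rested on 1 to 5 fragments of Rtl1, if a step is 1 fragment. In bulk RNA, a different number of expressing cells and a different level per cell cannot be told apart.

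**Figure D2:**
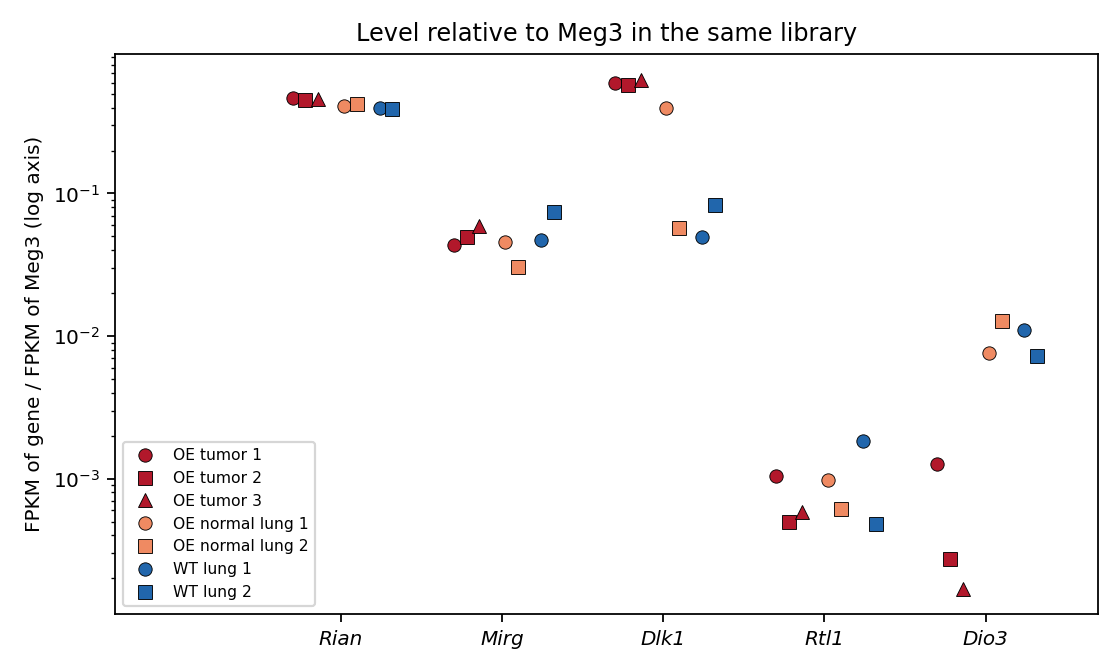
FPKM of each gene divided by FPKM of Meg3 in the same library (log axis), with 1 point per library. Rian stays between 0.390 and 0.464, while the Dlk1 ratio is 0.576 to 0.629 in the tumors, 0.397 in OE normal lung 1 and 0.0498 to 0.0834 in the other normal lungs.

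OE normal lung 1 held more of every member than the other 3 normal lungs, a pattern that 27.1% of the 19404 genes showed. It had 33.9 times the Dlk1 of OE normal lung 2, 4.86 times its Meg3, 4.73 times its Rian, 7.22 times its Mirg, 7.79 times its Rtl1 and 2.89 times its Dio3. After subtraction of the mean of the other 3 normal lungs, the excess in OE normal lung 1 was 9.48 FPKM for Dlk1, 18.1 FPKM for Meg3, 7.52 FPKM for Rian and 0.758 FPKM for Mirg. These amounts were 1.35%, 1.56%, 1.41% and 1.22% of the tumor mean of each gene, for genes whose tumor means span 62.1 to 1163 FPKM. The size depends on the tumor used, since the same amounts were 4.75%, 5.43%, 4.85% and 5.18% of the level in tumor 1 and 0.998%, 1.15%, 1.04% and 0.883% of the mean of tumors 2 and 3. The excess of Rtl1 was 2.63% of its tumor mean, on 5 fragments, and that of Dio3 was 32.9%, on 13. Relative to the excess of Meg3, that of Dlk1 was 0.523, that of Rian 0.415 and that of Mirg 0.0418.

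The trace was then set beside other genes that were high in the tumors and low in the other 3 normal lungs. There were 14 genes outside the locus with at least 10 FPKM in every tumor and at most 1 FPKM in OE normal lung 2 and both WT lungs. Sftpc and Scgb1a1, which were listed at 0 in some libraries, were left out by name. They were chosen by these values, so their levels are a description. In 13 of the 14, OE normal lung 1 exceeded the highest of the other 3 normal lungs, and in 8 it passed 1 FPKM. The rule limited the other 3 normal lungs and not OE normal lung 1, so it favors such an excess. Without that choice the share was 27.1% of the 19404 genes above 0 in some library, and nothing is read from the count. The excess had a median of 1.77% of the tumor mean and ranged from -0.333% for Bcl2l15 to 5.62% for Tdo2, which encodes a tryptophan-degrading dioxygenase. Lce3f and Kng2, a kininogen gene, had excesses of 1.70% and 1.32%, and Cldn2, which encodes a tight junction claudin, had 0.283%. The 4 higher locus genes fell inside this range. Of these, Meg3 (5.14 to 8.93 FPKM) and Rian (2.17 to 3.48 FPKM) were above the 1 FPKM limit in the other 3 normal lungs, so the rule does not describe them. Whether tumor cells or tumor RNA were present in the library labelled OE normal lung 1 was not tested.

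**Figure D3:**
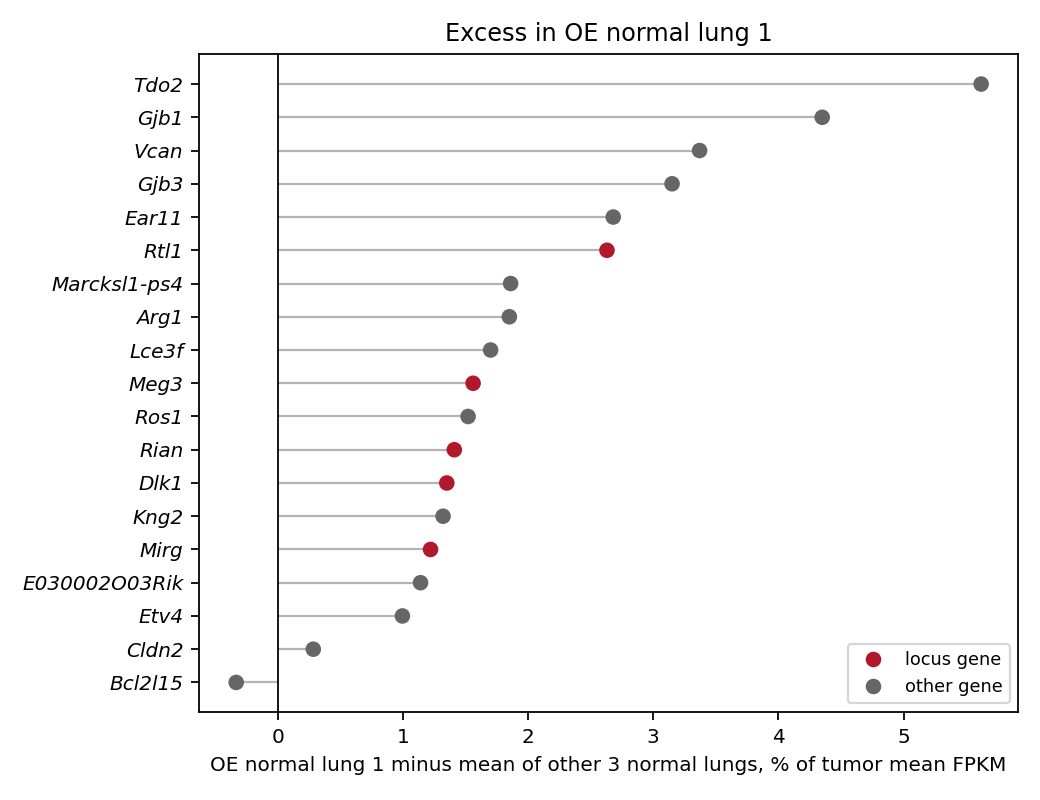
Level in OE normal lung 1 minus the mean of the other 3 normal lungs, as a percent of the tumor mean FPKM, for 5 locus genes and the 14 other genes described above. Meg3, Rian, Dlk1 and Mirg sit between 1.22% and 1.56%, and Dio3, at 32.9%, lies outside the axis and is not drawn.

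OE normal lung 2 lay below the WT mean for all 6 members. It stood at 0.546 times the WT mean for Dlk1, 0.663 times for Meg3, 0.715 times for Rian, 0.324 times for Mirg, 0.384 times for Rtl1 and 0.966 times for Dio3. Its value was the lowest of the 7 libraries for Dlk1, Meg3, Rian, Mirg and Rtl1. The log2 difference of OE normal lung from WT lung was 1.30 for Dlk1 (SE 1.16), 0.54 for Meg3 (SE 0.96), 0.57 for Rian (SE 0.90) and 0.09 for Mirg (SE 0.87). Without OE normal lung 1 these became -0.24, -0.50, -0.34 and -0.35, so the direction rested on that library. The groups overlapped for all 6 members.

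The microRNA gene rows of the locus were mostly at 0. These are gene-level FPKM, so levels of mature microRNAs cannot be read from them. Fragments of a hairpin and of its host transcript cannot be told apart here. RefSeq gave 107 mature sequences for 57 of the 59 microRNA symbols listed, with 99 distinct seeds (bases 2 to 8), and 8 seeds were shared by more than 1 name, as between miR-379-3p and miR-411-3p. The files held 56 rows for the locus. Of these, 46 were at exactly 0 in every library, 2 were above 0 but under 1 FPKM, and 8 reached 1 FPKM in some library. All 8 did so in tumors only, 1 in tumor 1, 4 in tumor 2 and 5 in tumor 3, and none did in a normal lung. Elsewhere in the genome, of 525 microRNA rows, 19, 25 and 17 reached 1 FPKM in tumors 1, 2 and 3, against 24 and 28 in OE normal lung and 28 and 26 in WT lung.

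Only the rows of Mir369 and Mir3072 reached 1 FPKM in more than 1 tumor. The mature sequences of these genes are shown for this reason, with the seed in capitals, from RefSeq on GRCm38.p6 chromosome 12. The rows name the hairpin gene and not an arm.
miR-369-5p: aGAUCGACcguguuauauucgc
miR-369-3p: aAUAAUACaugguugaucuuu
miR-3072-5p: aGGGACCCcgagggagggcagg
miR-3072-3p: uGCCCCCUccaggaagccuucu

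Mir369 had 472.1, 0 and 1756 FPKM in tumors 1, 2 and 3 and was listed at 0 in all 4 normal lungs. Mir3072 had 0, 755.8 and 645.1 FPKM in tumors 1, 2 and 3 and was also listed at 0 in all 4 normal lungs. An FPKM of a hairpin is large because the gene is short, so a few fragments give a high FPKM, and a value of 0 may be a failed estimate. The 4 seeds differ from one another. The log2 difference from OE normal lung was 6.56 for Mir369 (SE 2.99, limma adjusted p = 0.132) and 6.30 for Mir3072 (SE 2.84, limma adjusted p = 0.128), and neither was called. Mir3072 became called without tumor 1, and Mir369 without tumor 2. In each case this was the only tumor listed at 0, so the call follows from the library left out. The other 6 hairpins were seen in 1 tumor each, from 351.1 FPKM for Mir409 in tumor 2 to 1560 FPKM for Mir154 in tumor 3. The small nucleolar RNA rows AF357355 and AF357359 were at 0 in every library.

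Dio3os, a noncoding RNA that starts beside Dio3 on the opposite strand, had 1.60, 10.4 and 6.03 FPKM in tumors 1, 2 and 3, against 1.34 and 0.262 FPKM in OE normal lung, with 0.927 and 0.830 FPKM in WT lung. The tumors lay above all normal lungs, tumor 1 by a small margin. The log2 difference was 1.79 from OE normal lung (SE 0.62, limma adjusted p = 0.0653) and 1.66 from WT lung (SE 0.62, limma adjusted p = 0.0805), which did not pass, and the first passed without tumor 1. Without strand, reads of Dio3 and Dio3os cannot be told apart where the genes overlap.

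The neighbors on chromosome 12 were called in both directions. Of 13 genes listed on either side, 12 were in the files and tested, with 2 called higher, 2 lower and 8 not called against OE normal lung, where 13.1% of all genes were called higher and 24.9% lower. Their median log2 difference was 0.12, against -0.11 over all genes. Begain, the nearest listed neighbor on the Dlk1 side, was low in tumors at 0.129, 0.0341 and 0.157 FPKM, against 1.92 and 1.64 FPKM in OE normal lung, with 1.96 and 1.09 FPKM in WT lung. It fell by 1.33 on the log2 scale from OE normal lung (SE 0.18, limma adjusted p = 0.00269). Yy1, which encodes a zinc finger regulator, was higher by 0.81 (SE 0.24, limma adjusted p = 0.0388) and the carrier gene Slc25a47 by 0.80 (SE 0.24, limma adjusted p = 0.043). Degs2, a sphingolipid desaturase gene, fell by 0.89 (SE 0.28, limma adjusted p = 0.046). The calls of Yy1, Slc25a47 and Degs2 were lost without any 1 of the 6 libraries other than tumor 1, with adjusted p up to 0.155, 0.189 and 0.255 over the alternatives, while 10 genes were called without tumor 1 (6 higher, 4 lower), when 26.7% of all genes were called higher and 41.7% lower. Ppp2r5c, the nearest listed gene beyond Dio3, was not called.

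**Figure D4:**
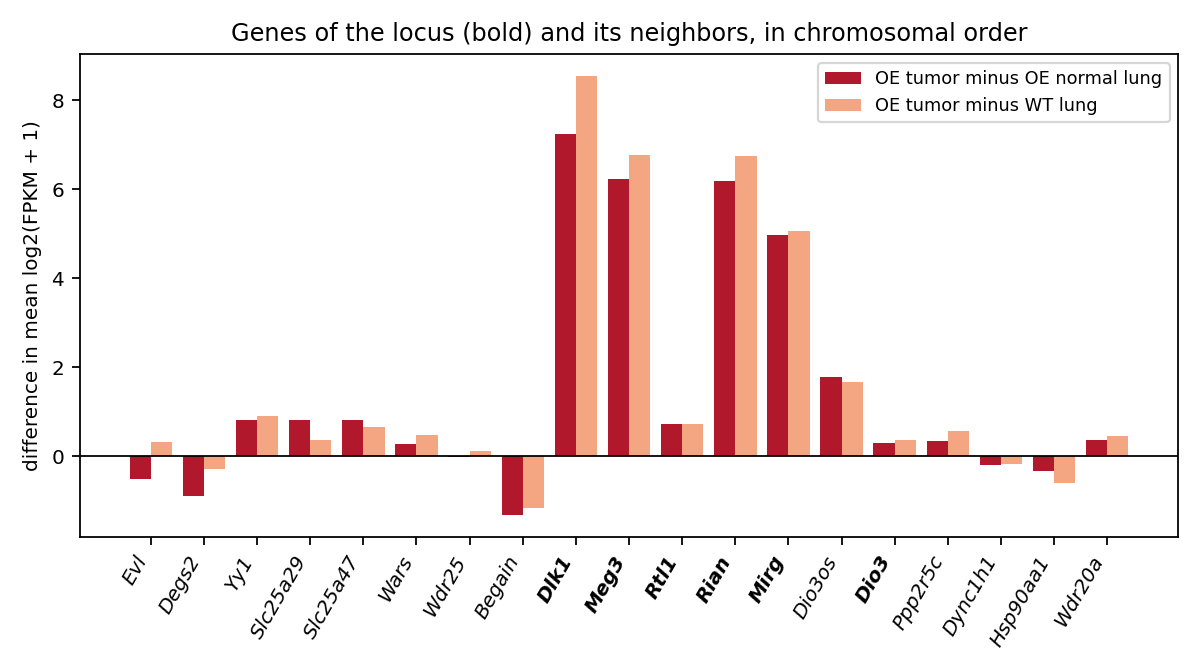
Difference in mean log2(FPKM + 1) of OE tumors minus OE normal lung and OE tumors minus WT lung for locus genes (bold), Dio3os and 12 neighbors, in RefSeq chromosomal order and not to genomic scale. Bars carry no error. Dlk1 (7.23 and 8.54) and the 3 noncoding RNAs (4.96 to 6.76) stand above the neighbors, and Begain is the lowest bar at -1.33 and -1.17.

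Imprinted genes at other loci were also called in both directions, at shares near those of all genes. Of 32, 25 were tested and 7 were below the minimum. There were 3 called higher, 8 lower and 14 not called against OE normal lung, beside 13.1% of all genes called higher and 24.9% lower, with a median log2 difference of -0.35 (all genes -0.11). Against WT lung the counts were also 3, 8 and 14, with a median of -0.62 (all genes -0.06). Without tumor 1 the counts against OE normal lung were 7 higher and 12 lower (26.7% and 41.7% of all genes), and without OE normal lung 2 they were 1 and 5 (5.19% and 16.1% of all genes). Snrpn, a paternally expressed splicing protein gene, fell by 2.41 on the log2 scale (SE 0.19, limma adjusted p = 0.000462), and Ndn, which encodes the growth regulator necdin, fell by 2.39 (SE 0.18, limma adjusted p = 0.000397). Ddc, the aromatic amino acid decarboxylase gene, was 2.12 higher (SE 0.30, limma adjusted p = 0.00299) and Ppp1r9a, which encodes neurabin, was 1.89 higher (SE 0.43, limma adjusted p = 0.0162, up to 0.103 and lost without either OE normal lung). Igf2, the paternally expressed growth factor, had 5.67, 0.730 and 0.465 FPKM in tumors 1, 2 and 3, against 4.71 and 3.21 FPKM in OE normal lung, with 3.05 and 3.38 FPKM in WT lung, and was not called.

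Of 15 genes that maintain imprints or DNA methylation, 13 were tested, with 4 called higher, 2 lower and 7 not called against OE normal lung (13.1% of all genes higher and 24.9% lower), a median of 0.23. Trim28, the corepressor that ZFP57 recruits to imprinted control regions, had 62.9, 76.4 and 69.1 FPKM in tumors, against 32.3 and 35.6 FPKM in OE normal lung, with 37.8 FPKM in each WT lung, and was 1.01 higher than in OE normal lung (SE 0.12, limma adjusted p = 0.00176). Zfp57 had 15.2, 17.3 and 12.6 FPKM in tumors, against 8.08 and 6.83 FPKM in OE normal lung, with 15.2 and 16.1 FPKM in WT lung. It was 0.92 higher than in OE normal lung (SE 0.16, limma adjusted p = 0.00668, and 0.0562 at most over the alternatives, without OE normal lung 2), and its difference from WT lung was -0.07 (limma adjusted p = 0.771). Aff3, reported in mouse to bind the control region between Dlk1 and Meg3, had 0.214, 0.0620 and 0.136 FPKM in tumors, against 8.03 and 10.2 FPKM in OE normal lung, with 6.42 and 8.28 FPKM in WT lung, and fell by 3.15 (SE 0.17, limma adjusted p = 0.000274). Only 1 gene of the list was called higher without OE normal lung 2 (5.19% of all genes), and 5 were without tumor 1 (26.7% of all genes). Among 11 PRC2 subunits, 2 were called higher, 2 lower and 7 not called (13.1% of all genes higher and 24.9% lower), and without tumor 1 the counts were 6 higher and 3 lower (26.7% and 41.7% of all genes), while 0 were higher without any other single library. DNA methylation and histone marks were not analysed here.

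Genes on which the coding members are known to act were counted next. Of 21 Notch pathway genes, 18 were tested, and 0 were called higher, 10 lower and 8 not called against OE normal lung, where 13.1% of all genes were higher and 24.9% lower. The median log2 difference was -0.86. The count of lower genes was 15 without tumor 1 (41.7% of all genes) and 7 without either OE normal lung (16.7% of all genes without the first and 16.1% without the second). The ligand gene Dll1 fell by 2.80 (SE 0.32, limma adjusted p = 0.00139), the target gene Hey1 by 2.43 (SE 0.35, limma adjusted p = 0.00333), and the receptor genes Notch4 by 2.02 and Notch3 by 1.47 (limma adjusted p = 0.00258 and 0.00116). All 10 endothelial markers were also called lower, with summed levels of 96.2 to 125.8 FPKM in tumors, against 1472 to 1647 FPKM in OE normal lung and 1745 to 2076 FPKM in WT lung. Their part in the Notch values was not tested.

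Of 12 genes of fat cell differentiation, 10 were tested, with 3 called higher, 3 lower and 4 not called (13.1% of all genes higher and 24.9% lower). The fat cell hormone gene Cfd fell by 5.04 from OE normal lung (SE 0.55, limma adjusted p = 0.00121). Adipoq, also a fat cell hormone gene, fell by 3.35 (SE 0.23, limma adjusted p = 0.000334). From WT lung the log2 differences of Cfd and Adipoq were smaller, at -3.46 and -1.56. Both genes were higher in OE normal lung than in WT lung, by 1.578 and 1.795, and neither was called there. The fat tissue content of the libraries was not tested. Against OE normal lung, Sox9, a regulator downstream of DLK1 in mouse fat precursors, was 3.68 higher (SE 0.61, limma adjusted p = 0.00512). Cebpa, a regulator of fat cells that is also active in alveolar cells, was 3.35 higher (SE 0.21, limma adjusted p = 0.000298). Without tumor 1, 5 genes of this list were lower, as were 41.7% of all genes. Of 14 genes of thyroid hormone metabolism and action, 10 were tested, with 1 called higher, 4 lower and 5 not called, beside the same shares of all genes. The receptor gene Thra fell by 1.13 (SE 0.20, limma adjusted p = 0.00697), while the other receptor gene, Thrb, was the 1 called higher, by 0.77 (SE 0.24, limma adjusted p = 0.0469). No gene of the list was called higher without any 1 of the 6 libraries other than tumor 1. The hormone-responsive genes Klf9 and Thrsp fell by 0.86 (SE 0.12, limma adjusted p = 0.00276) and 2.05 (SE 0.37, limma adjusted p = 0.00706, and 0.0591 at most over the alternatives, without OE normal lung 2). Slc16a10 fell by 1.31 (SE 0.40, limma adjusted p = 0.0443, and 0.214 at most over the alternatives). The number of lower genes was 8 without tumor 1 (41.7% of all genes) and 2 without OE normal lung 2 (16.1% of all genes). Of 13 genes derived from retrotransposon gag sequences, as Rtl1 is, 4 were tested and 0 were called higher and 2 lower (13.1% of all genes higher and 24.9% lower). These were Ldoc1l, which fell by 0.95 (SE 0.19, limma adjusted p = 0.0103), and Rgag4, which fell by 0.73 (SE 0.20, limma adjusted p = 0.0336). The Rgag4 call was lost without any 1 of the 6 libraries other than tumor 1 and that of Ldoc1l without OE normal lung 1, with adjusted p up to 0.439 and 0.31 over the alternatives.

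Markers of cell types that could accompany Dlk1 were counted against OE normal lung, where 13.1% of all genes were called higher and 24.9% lower. Without tumor 1 these shares were 26.7% and 41.7%, without OE normal lung 1 they were 5.79% and 16.7%, and without OE normal lung 2 they were 5.19% and 16.1%. Of 8 hepatoblast and liver markers 4 were tested and 3 were higher than in OE normal lung (1 without either OE normal lung), and their summed level was 23.6 to 28.6 FPKM in tumors, against 3.15 and 3.56 FPKM in OE normal lung, with 4.39 and 12.3 FPKM in WT lung. Of 10 neuroendocrine markers 5 were tested, with 2 higher and 2 lower. Of the 10 markers, 3 were at 0 in every tumor, and the summed level was 7.01 to 12.8 FPKM in tumors, against 6.73 and 5.44 FPKM in OE normal lung, with 9.33 and 8.13 FPKM in WT lung. Of 10 fibroblast markers 1 was higher and 3 were lower (7 lower without tumor 1, 1 without OE normal lung 2), and their sum was 588.6, 159.9 and 201.2 FPKM in tumors 1, 2 and 3, against 551.6 and 711.6 FPKM in OE normal lung, with 531.5 and 675.6 FPKM in WT lung, so among tumors it was highest in tumor 1, the tumor with the least Dlk1 and Meg3. Of 11 alveolar type 2 markers, which define the labelled lung tissue, 8 were higher and 0 lower (6 without OE normal lung 2), and the sum was 44200, 13170 and 13220 FPKM in tumors 1, 2 and 3, against 17490 and 12720 FPKM in OE normal lung, with 19380 and 15590 FPKM in WT lung. The surfactant gene Sftpc decides this order, since it had 35944 FPKM in tumor 1 and 10578 to 15915 FPKM in the normal lungs but was listed at 0 in tumors 2 and 3. The surfactant gene Sftpb had 6954 and 6779 FPKM in tumors 2 and 3. Whether the 0 of Sftpc is a failed estimate was not tested. Without Sftpc the sum was 8255, 13170 and 13220 FPKM in tumors 1, 2 and 3, against 3172 and 2147 FPKM in OE normal lung, with 3461 and 2537 FPKM in WT lung, so all tumors lay above all normal lungs. Of 12 skeletal and heart muscle markers 9 were tested and 8 were lower, with sums of 4.06 to 7.96 FPKM in tumors, against 722.1 and 1685 FPKM in OE normal lung, with 784.3 and 1372 FPKM in WT lung. The skeletal muscle actin gene Acta1 was not called (limma adjusted p = 0.302), and the skeletal muscle genes Myod1, Myog and Pax7 were below the minimum. The part of these cell types in the locus values was not tested.

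The genes whose levels were most like those of Meg3 and Dlk1 over the 7 libraries were found by Pearson r on log2(FPKM + 1) among 11171 genes that reached 5 FPKM in some library. The libraries share the tumor difference, so r is a description, and 13.8% of these genes had r above 0.9 with Meg3 and 12.5% with Dlk1. Above 0.99 there were 55 genes for Meg3 and 30 for Dlk1. The 10 most like Meg3 were St6galnac6 (0.9989), Commd9, Tdo2, Lce3f, Creb3l1, Cat, Smox, Atp6v1c2, Elf5 and Idh1 (0.9962). The 10 most like Dlk1 were Lce3f (0.9992), Kng2, Commd9, St6galnac6, Rab1b, Tdo2, Wdr6, Ankmy2, St3gal6 and Ptk7 (0.9929), and 4 genes were on both lists. Their size of change varied widely, since the tumor mean was 245 times the mean of the 4 normal lungs for Kng2 and 204 times for Lce3f, but 1.70 times for Commd9 and 1.58 times for Smox. Lce3f, a late cornified envelope gene, had 94.9, 383.7 and 324.6 FPKM in tumors 1, 2 and 3, against 4.73 and 0.0658 FPKM in OE normal lung, with 0.143 and 0.311 FPKM in WT lung. Like Dlk1, it was lowest among tumors in tumor 1 and highest among normal lungs in OE normal lung 1. Elf5, an epithelial transcription factor gene that marks distal tips of the fetal lung, had 80.3, 163.0 and 169.1 FPKM in tumors 1, 2 and 3, against 10.0 and 5.07 FPKM in OE normal lung, with 6.03 and 7.22 FPKM in WT lung.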

How the data were processed

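Values were FPKM per gene symbol, deposited by the authors. Per the submitters' processing notes, the tools were TopHat2, TopHat and Cufflinks 2.0.0 and the genome build was mm9. That the values are FPKM follows from Cufflinks and from their range. Annotation, strand setting and read totals were not given in the sources used here. In each file 27 rows with a date for a symbol were left out, which left 22447 genes. Members and gene lists were chosen with earlier results of these data known.

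Differences were fitted on log2(FPKM + 1) for 14057 genes (1 FPKM or more in 2 or more of 7 libraries) with limma 3.58.1 in R 4.3.3 (mean-variance trend, 3 groups sharing 1 spread, 2-sided, Benjamini-Hochberg adjusted p under 0.05 over all genes). Replicates are not stated to be separate animals, so each p-value reflects the spread of these libraries, which may be technical. Named genes were the members, up to 4 called genes per list with the largest difference from OE normal lung or up to 2 with the highest mean where none was called, detected microRNAs, and the 10 genes most like Meg3 and Dlk1. Igf2, Ppp2r5c, Thrb and the genes named in the comparison of the trace were chosen after their values were seen. The procedure was run on simulated data in which few genes differed and the noise was independent. Many genes were called here and tumor 1 stood apart, so that run does not check the fit under these conditions. Deviations of same-numbered libraries of different groups correlated at -0.029 to 0.034, and the main fit did not pair them. With 2 or 3 libraries per group, this cannot settle whether the numbers mark shared animals.

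Relative depth came from the ratio most often shared by low values (0.001 to 0.1 FPKM) between libraries. Start windows and mature microRNAs came from RefSeq tables on GRCm38.p6, which is not the build of the files. Only names, sequences and gene order were taken from them. Each result was recomputed with a pseudocount of 0.1, with no filter or a 5 FPKM minimum, with quantile, TPM or median-of-ratios scaling, with only the 2 groups compared, with a replicate block and without each library in turn. Python 3.11.15 and matplotlib 3.10.9 were used for the descriptions and figures.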

Additional observations from a re-analysis of the deposited data

How the results depend on the processing

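Since the members were chosen from this readout, their values under the 15 alternatives are a description and lend no support. The log2 differences from OE normal lung were 5.69 to 8.77 for Dlk1, 5.18 to 7.26 for Meg3, 5.26 to 7.09 for Rian and 4.50 to 6.40 for Mirg. Over all genes, leaving out 1 library gave 2996 to 9620 calls for OE tumors against OE normal lung, 2445 to 9438 for OE tumors against WT lung and 0 to 290 for OE normal lung against WT lung, where the highest values were without tumor 1. The replicate block gave 3130, 2999 and 1, although the deviations of same-numbered libraries correlated at only -0.029 to 0.034. For OE normal lung against WT lung, a pseudocount of 0.1 gave 1 call, no filter 2 and only the 2 groups compared 3. With 1 library left out, the difference of OE normal lung from WT lung ranged from -0.24 to 2.84 for Dlk1, -0.50 to 1.58 for Meg3, -0.34 to 1.49 for Rian and -0.35 to 0.53 for Mirg. It changed sign without OE normal lung 1, which gave the lowest values, and for Mirg also without WT lung 1, to -0.08. The cause of the other shifts was not tested. Depth limits Rtl1 and Dio3, which rest on few fragments in normal lung, and the microRNA rows.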
